A study of Bos taurus with 11 samples.

Results

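Trimethylation of histone H3 at lysine 4 (H3K4me3) was compared between rumen epithelial primary cells (REPC) of cattle cultured with butyrate and without it. All intervals of the 2 H3K4me3 libraries were taken, which gave 27292 intervals in control and 33804 after butyrate, together 61096 of the 371758 intervals of the series. A single Holstein bull calf, 2 weeks of age and fed milk replacer alone, was the source of the cells, so the libraries describe the cells of 1 animal. The treated culture received 5 mM butyrate for 24 h and the control culture received none. The series holds 10 chromatin immunoprecipitation libraries, 1 for each condition of H3K4me3, H3K4me1, H3K27ac, H3K27me3 and the insulator protein CTCF, and 1 pooled input library. With 1 library per mark and condition there was no replicate, so no difference between conditions was tested. Differences are given as values of these libraries, and intervals in brackets after a share are exact Clopper-Pearson 95% intervals that cover counting error only.

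H3K4me3 is deposited at the starts of active genes by the SET1 and MLL complexes, which bind CpG islands, and it is read by proteins that help to assemble the transcription machinery. At silent developmental genes it can lie together with H3K27me3, the mark of the Polycomb repressive complex, and such promoters are called bivalent. Butyrate is a short-chain fatty acid of rumen fermentation, an energy source of the rumen wall and an inhibitor of histone deacetylases. The comparison of the libraries addressed how butyrate alters the promoter mark in these cells.

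H3K4me3 intervals were found at starts of epithelial as well as mesenchymal marker genes. KRT5, a basal keratin, had 59.3 signal units in control and 57.6 with butyrate, where signal is the mean tag density of the intervals within 2 kb of the gene start. ITGB4, the integrin of hemidesmosomes, had 138 and 111. Of 10 stratified epithelium markers 4 were marked in control and 8 after butyrate, and CDH1 (E-cadherin) carried no interval in either library. The annotated start of TP63, the master regulator of stratified epithelia, was unmarked, but an interval 196041 bp inside the gene had a signal of 59.4 in control, and an interval of 60 lay at that place after butyrate. TP63 is known to have an internal promoter. Of 9 fibroblast and smooth muscle markers with a known start 5 were marked in control and 6 after butyrate, including COL1A1, a fibrillar collagen gene, with 97.4 and 87.1, and ACTA2, smooth muscle actin, with 105 and 107. DCN and PDGFRB carried no interval at the start. Of 5 endothelial markers 1 was marked in each library, and of 7 immune markers 1 in control and 2 after butyrate. Over all 23869 gene starts 13550 were marked in control and 14777 after butyrate. In control no marker group exceeded the share of all starts. What part other cell types had in the results was not tested, and a mark in more cells and a stronger mark per cell cannot be told apart in such libraries.

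Intervals that overlapped by at least 1 bp were joined across the libraries into 34105 regions, of which 21899 were shared, 9943 were called only after butyrate and 2263 only in control. The single-library regions were weak and short in both directions. Those called only after butyrate had a median length of 333 bp and a median signal of 26.9, and those called only in control had 243 bp and 22, against a median signal of 63.5 in control for the shared regions. A signal of at least 50 was reached by 574 of the butyrate-only regions and by 1 of the control-only regions.

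The sets that were called in only 1 library differed in where they lay. Control-only regions stood mostly beside an interval that butyrate cells had too, with a median gap of 350 bp and with 64.0% (62.0 to 66.0) within 500 bp. Butyrate-only regions had a median gap of 3920 bp to the nearest control interval, and 3840 of them were over 10 kb away. Of these distant regions 56.3% (54.7 to 57.9) held a CpG island and 67.9% (66.4 to 69.3) lay on H3K27me3 of the control cells. Among the butyrate-only regions at most 1 kb from a control interval the shares were 24.7% (23.3 to 26.2) and 29.5% (28.0 to 31.1). The 264 control-only regions over 10 kb away carried H3K27ac, the mark of active enhancers and promoters, in 61.7% (55.6 to 67.6) and H3K27me3 in 1.89% (0.618 to 4.36).

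Gene starts were taken from the distances in the interval table, and a region counted as at a gene start when it came within 2 kb of it. Shared regions were at a gene start in 65.9% of cases, butyrate-only regions in 31.0% (30.1 to 31.9) and control-only regions in 47.2% (45.2 to 49.3). Gene bodies held 16.9%, 39.7% and 35.6%. With equal numbers of intervals in both libraries, 5774 were called only after butyrate and 3804 only in control. In control, H3K27me3 without H3K27ac was present at 20.3% (19.8 to 20.9) of the shared regions, at 48.3% (47.3 to 49.3) of the butyrate-only regions and at 5.92% (4.98 to 6.97) of the control-only regions. Of the control-only regions 71.6% (69.7 to 73.4) carried neither mark. Hence regions called only after butyrate were most often found on chromatin with the Polycomb mark. Regions called only in control mostly lay close to an interval of the butyrate library. These positions were not examined with equal numbers of intervals.

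**Figure D1:**
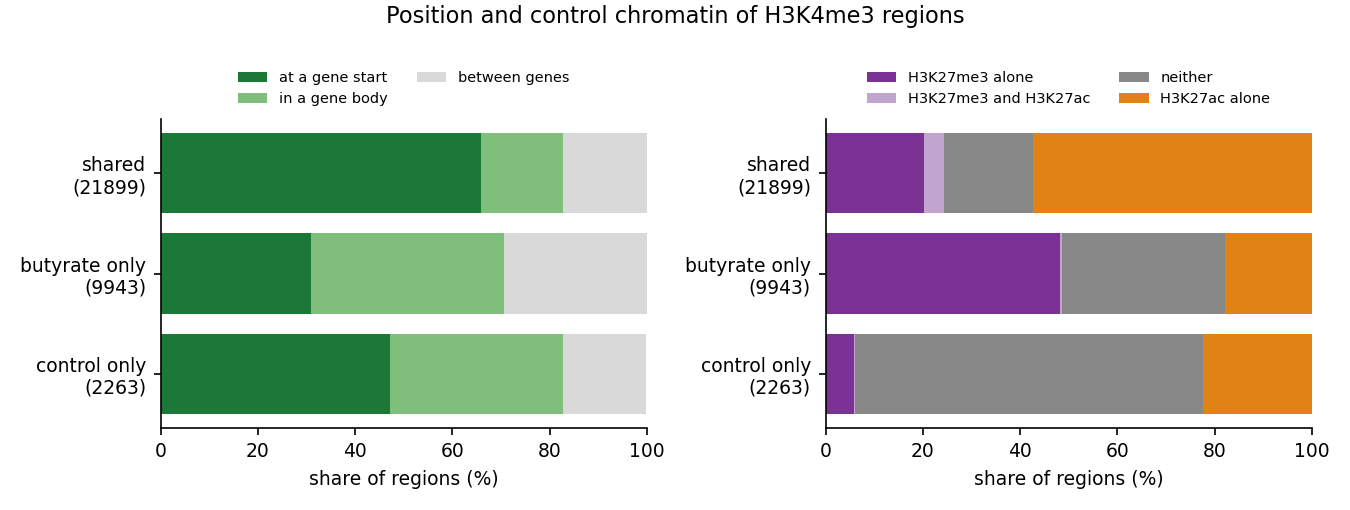
Position (left) and other marks called in control (right) of shared, butyrate-only and control-only H3K4me3 regions, as the share of regions in percent, with the number of regions in brackets. H3K27me3 alone fills 48.3% of the butyrate-only bar, 20.3% of the shared bar and 5.92% of the control-only bar.

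In the shared regions the change of signal was uneven. The log2 ratio of the average signal, butyrate over control, had a median of 0.06, and 1138 of 21899 regions were at least 2-fold higher after butyrate (5.20% of all shared regions) while 22 were lower by that factor or more (0.100%). The 4449 regions with H3K27me3 alone in control had a median of 37.2 signal units in control and 60.5 with butyrate. Their median log2 ratio was 0.59, and 935 of them, 21.0% (19.8 to 22.2), were at least 2-fold higher. The 12573 regions with H3K27ac alone had a median signal of 85.6 and 81.1, a median log2 ratio of -0.05, and 93 regions, 0.74% (0.597 to 0.905), at least 2-fold higher. With signals divided by the mapped tags of each library, which moved all log2 ratios by 0.15, the medians were 0.74 with H3K27me3 alone and 0.10 with H3K27ac alone. The 901 regions with both marks and the 3976 with neither lay between them, with medians of 0.10 and 0.11.

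**Figure D2:**
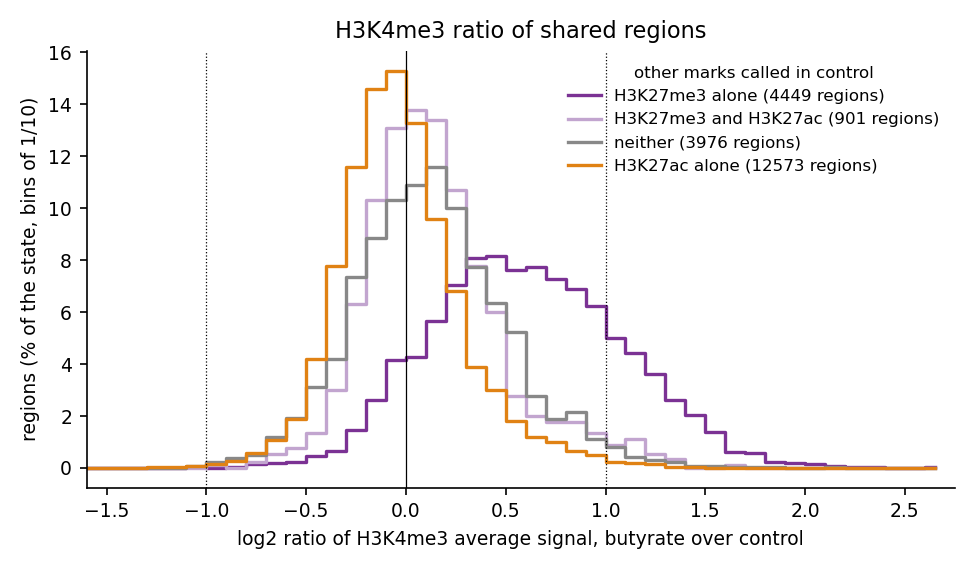
Distribution of the log2 ratio of H3K4me3 average signal, butyrate over control, over shared regions, split by the other marks called in control. The vertical axis is the percent of the regions of that state in bins of 0.1, and dotted lines mark 2-fold. The curve of H3K27me3 alone is displaced to the right (median 0.59) and that of H3K27ac alone is centered close to 0 (median -0.05).

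Regions with H3K27me3 alone were weaker in control than those with H3K27ac alone, so the states were also compared at like control signal. Among regions with a control signal of 20 to 40 the median log2 ratio was 0.76 with H3K27me3 alone, 0.19 with H3K27ac alone and 0.10 with neither. At 40 to 60 the medians were 0.49, 0.05 and 0.09. At 80 to 100 they were 0.24, -0.08 and 0.05. Regions with both marks, whose median control signal was 83.6, had medians of 0.62 (65 regions), 0.34 (115) and 0.04 (260) in these ranges. The order of H3K27me3 alone above the others held in each range. It held at each location too, with medians of 0.62 at gene starts, 0.58 in gene bodies and 0.53 between genes for H3K27me3 alone, against -0.08, 0.05 and 0.06 for H3K27ac alone. With H3K27me3 alone the median was 0.63 at regions with a CpG island and 0.34 at those without.

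An H3K27me3 interval was mostly still called at these regions after butyrate. Where H3K27me3 alone was kept after butyrate (3280 regions) the median H3K4me3 log2 ratio was 0.68, and where it was no longer called (1169 regions) it was 0.35. Of 418 bivalent gene starts with H3K4me3 at least 2-fold higher, 373 (89.2%; 85.9 to 92.0) kept an H3K27me3 interval, and the median H3K27me3 signal of those was 18.5 in control and 11.2 after butyrate. Bivalent starts under 2-fold kept it in 64.5% (62.8 to 66.3), with 13.4 and 8.91, and all starts with H3K27me3 in control kept it in 79.4% (78.5 to 80.3), with 12 and 9.37. The median H3K27me3 log2 ratio was -0.79 at the 418 starts, -0.55 at bivalent starts under 2-fold and -0.36 over all starts with H3K27me3. Kept or not, the 3 groups had median H3K27me3 signals of 17.7, 10.9 and 10.7 in control. H3K27ac was present at 13 of the 418 in control and at 12 after butyrate. The H3K27ac state of active regions went with no such difference, since the median H3K4me3 log2 ratio was -0.05 where H3K27ac of the control was no longer called and -0.04 where it was kept. Regions with H3K4me1, the mark of enhancers and promoter flanks, in control had a median of 0.18, and those without it had -0.01.

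Regions also changed in length. Covered length was larger after butyrate in 12638 shared regions and smaller in 9210, and it was larger by at least 1000 bp in 994 and smaller by as much in 76. With H3K27me3 alone the median length was 622 bp in control and 991 bp after butyrate, and 85.8% of the regions were longer, against 47.2% with H3K27ac alone. In 2383 regions at least 2 control intervals lay under 1 butyrate interval, and in 1502 a single control interval lay over at least 2 butyrate intervals.

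The extension was on both sides of the start at H3K27me3 promoters. Over 806 starts with H3K27me3 alone in control and no other start within 5 kb, the interval at the start reached a median of 599.5 bp into the gene in control and 909.5 bp after butyrate, and it reached farther in 83.9% (81.1 to 86.3). Upstream the median reach was 280 bp and 441 bp. At 4491 such starts with H3K27ac alone the reach into the gene was 1493 bp and 1462 bp, and upstream it was 602 bp and 536 bp. H3K4me3 of active starts thus had nearly the same width in both libraries, with a somewhat shorter upstream side after butyrate.

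**Figure D3:**
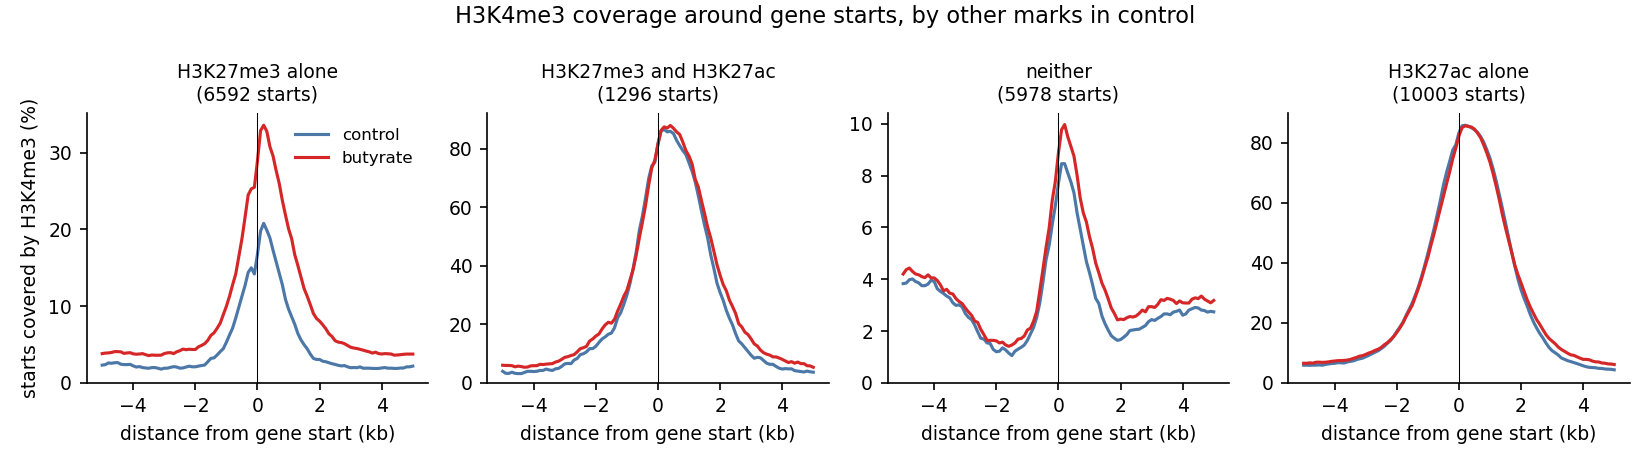
Share of gene starts covered by an H3K4me3 interval (percent, vertical axis) against distance from the start in kb along the direction of the gene, in control and after butyrate, in panels by the other marks called in control. The vertical scales differ between panels. The curves of the 10003 starts with H3K27ac alone nearly coincide, and for the 6592 starts with H3K27me3 alone the butyrate curve lies above the control curve over the whole window.

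The shared regions at starts of named genes with the highest ratios, among those whose signal reached the library median, all had short, weak control intervals, and 7 of the 8 carried H3K27me3 alone in control. KIF1A, the motor of synaptic vesicle precursors, had 2 control intervals of 443 bp together with a signal of 28.6 on chromosome 3 at 120605416 to 120608526 (UMD3.1), and a single butyrate interval of 3110 bp with a signal of 178 (log2 ratio 2.63). At FGF19, the ileal hormone of bile acid control, a control interval of 208 bp with a signal of 23.3 corresponded to 2275 bp with 107 after butyrate (2.19). EEF1A2, the elongation factor of neurons and muscle, had 261 bp with 25 in control and 4056 bp with 104 after butyrate (2.05). GRIN2C, an NMDA receptor subunit, had 18.5 and 75.5 (2.03). At SLC35F3, a solute carrier, the signals were 26.8 and 124 (2.21), with a covered length of 454 bp and 750 bp. PHOX2A, a homeodomain factor of noradrenergic neurons, had 21.5 and 89.5 (2.06), and FAM69C had 26.7 and 108 (2.01). KLF2, a Kruppel-like factor of quiescent cells, had 33.6 and 145 (2.11) and was the exception, with neither H3K27me3 nor H3K27ac under the region in control, although H3K27ac lay within 2 kb of its start.

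The lowest ratios were smaller in size and lay on chromatin without H3K27me3. Of 9 shared regions at gene starts that were at least 2-fold lower, 6 are named here, 1 had a signal under the library median and 2 held no gene symbol other than provisional ones. At ANKRD1, a muscle ankyrin repeat protein and known target of the coactivator YAP, the signal was 77.7 in control and 33.2 after butyrate (log2 ratio -1.23), and the covered length was 1676 bp and 994 bp. CTGF, a secreted matricellular protein and another known YAP target, had 97.9 and 48 (-1.03), with 3215 bp and 2079 bp. MORF4L2, a chromatin-associated protein, had 65.3 and 27.5 (-1.25; 752 bp and 476 bp), and SIK3, a salt-inducible kinase, had 73.1 and 31.5 (-1.21; 759 bp and 631 bp). FXR1, an RNA-binding protein, had 53.3 and 26.3 (-1.02; 367 bp and 218 bp). IFFO2, of the intermediate filament family, had 51.5 and 25.6 (-1.01; 468 bp and 433 bp). These values are of single short regions, not of all H3K4me3 near the start. The regions of MORF4L2, SIK3 and FXR1 did not cover the gene start itself, and those of MORF4L2 and FXR1 held no CpG island. Among the named genes, just under 2-fold followed HNRNPUL1, an RNA-binding ribonucleoprotein, with 76.3 and 38.4 (-0.99), and DPY19L1, a mannosyltransferase, with 52.4 and 26.4 (-0.99). Of these 8 named regions, DPY19L1 carried neither mark in control and the others carried H3K27ac alone.

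**Figure D4:**
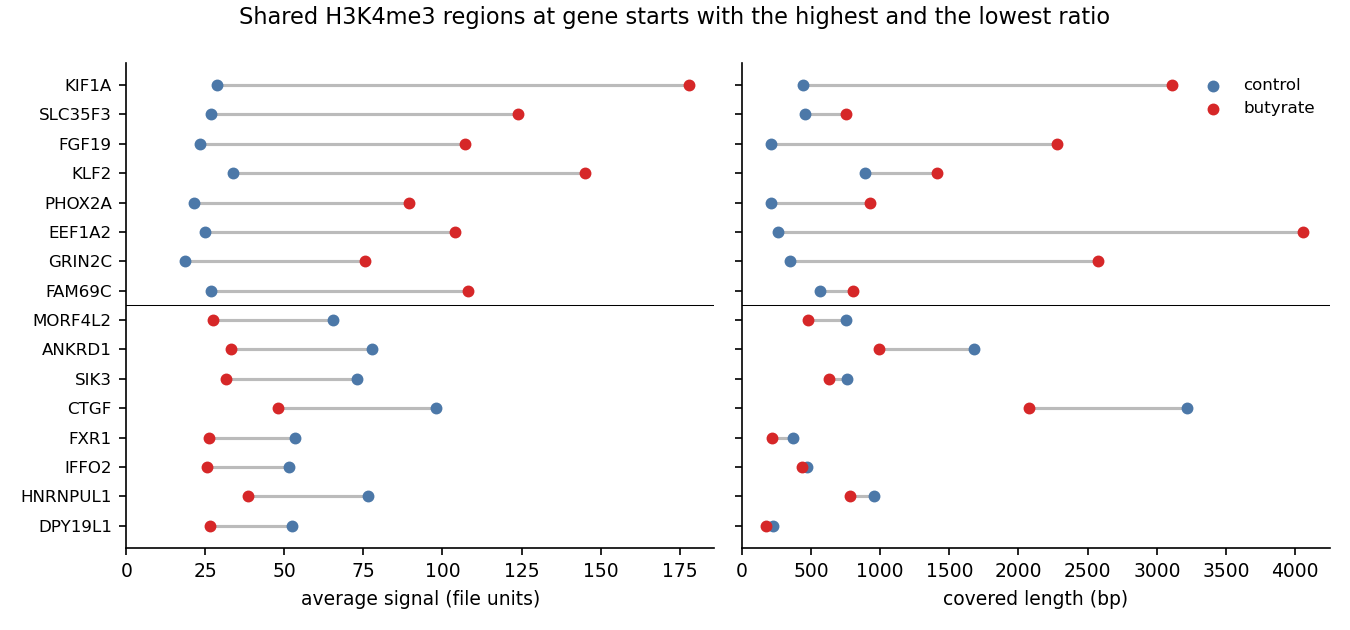
The 8 shared regions at gene starts with the highest and the 8 with the lowest log2 ratio, among regions with a named gene and a signal at or above the library median, with the average signal in file units (left) and the covered length in bp (right) of the control and the butyrate library, 1 point per library. At KIF1A the signal is 28.6 in control and 178 after butyrate, and at ANKRD1 it is 77.7 and 33.2.

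The largest gains of covered length came through fusion or spreading of intervals. At CEND1, a neuronal differentiation protein, and its neighbor SLC25A22, a mitochondrial glutamate carrier, 3 control intervals of 2964 bp together were 1 interval of 7496 bp after butyrate. PLAT, tissue plasminogen activator, had 2374 bp and 6385 bp, and PDGFA, a platelet-derived growth factor, had 2751 bp and 6745 bp. EEF1A2 (above) and SOX8, a neural crest factor with 462 bp and 4191 bp, completed the first 5. The regions of CEND1, PLAT and PDGFA carried H3K27ac alone in control, and those of EEF1A2 and SOX8 carried H3K27me3 alone. The largest losses of covered length were at CDC20, the activator of the anaphase-promoting complex (2786 bp and 1128 bp), at the histone gene HIST1H2BD (4719 bp and 3233 bp), at TROAP, a spindle protein (2894 bp and 1445 bp), at ATAD2, a bromodomain ATPase (4037 bp and 2623 bp), and at MAF, a leucine zipper factor (3915 bp and 2556 bp). HIST1H2BD belongs to a family of near-identical copies, so its reads are uncertain.

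Broad intervals, of at least 4 kb, numbered 678 in control (2.48%) and 873 after butyrate (2.58%). The longest in control was 12724 bp at PAX9, a transcription factor of oral and pharyngeal epithelium, and it measured 12662 bp after butyrate. The longest after butyrate was 15445 bp at MEIS1, a HOX cofactor, where 5 control intervals lay below it with a longest of 9553 bp. At EPHA2, an ephrin receptor of epithelia, the longest interval was 5246 bp in control and 13186 bp after butyrate. In control the interval over CCDC106, U2AF2 and ZNF581 (10604 bp and 11577 bp) and that of TPM4, a tropomyosin (10180 bp and 10847 bp), came next after PAX9. After butyrate AHNAK ranked 5th with an interval of 11345 bp, and its longest control interval was 7232 bp. Covered length of the whole region differed less, with 14454 bp and 15445 bp at MEIS1.

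A start could be placed for 23869 gene symbols, and 13494 of these starts had H3K4me3 within 2 kb in both libraries. A further 1283 of the 10319 starts without H3K4me3 in control were marked after butyrate (12.4%), and 56 of the 13550 marked in control were not marked after it (0.413%). Most gains were new regions, since 1201 of the 1283 came from regions called only after butyrate and 82 came from the edge of a shared region that moved within 2 kb of the start. Of the losses, 45 were regions called only in control and 11 were moved edges. Of the starts marked in both, 463 had a signal at least 2-fold higher (3.43%) and in 8 it was lower by that factor or more (0.0593%). Starts with H3K27me3 alone in control were gained in 22.8% (21.5 to 24.0) of 4472 cases, those with H3K27ac alone in 16.4% (13.5 to 19.6) of 603, those with both in 47.1% (29.8 to 64.9) of 34 and those with neither mark in 2.88% (2.44 to 3.37) of 5210. With the signal taken over whole regions in place of the 2 kb window, a choice made after seeing the data, 451 starts were at least 2-fold higher and 4 lower.

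Among gained starts with the highest butyrate signal, with provisional (LOC) and microRNA symbols left out, 5 of the first 8 were moved edges. They were MC1R, the melanocortin receptor, at 126, SSU72, an RNA polymerase phosphatase, at 115, GIT1, an ARF GTPase-activating scaffold, at 109, DAZAP1, an RNA-binding protein, at 107, and FKBP10, a collagen chaperone, at 106. The MC1R signal included an interval of 4791 bp that also marked TUBB3, a neuronal tubulin, which had 140 in control and 131 after butyrate. The other 3 were new regions. PADI1, a peptidylarginine deiminase of the epidermis, had no interval in control and 3445 bp with a signal of 108 after butyrate, OTOP3, a proton channel, had 1698 bp with 107, and TMEM40 had 1574 bp with 105. The next new regions, named after their values were seen, were at TMEM63C (91.4), KIF21B, a kinesin (88.6), CKMT1B, a mitochondrial creatine kinase (84.4), GGT1, gamma-glutamyltransferase (84.3), IL17REL (84.1) and IRX6, an Iroquois factor (83.4), all with H3K27me3 in control and after butyrate.

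The lost starts with a signal above the library median were all moved edges of regions that were called in both libraries. Apart from LOC symbols they were AGRP (141), UCKL1 (113), TMEM91 (100), RPL29 (98.9), RGS20 (96.4), NRIP1 (96) and STIL (66.3), where the value is the control signal.

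Genes of the cell cycle had shorter H3K4me3 intervals after butyrate. Of 35 mitosis genes marked in both libraries 34 had a smaller covered length at the start (97.1%; 85.1 to 99.9), whereas 46.7% of all starts marked in both did. Their median length was 2004 bp in control and 1475 bp after butyrate. KIF20A, a kinesin of cytokinesis, had 2839 bp and 1435 bp. BIRC5 (survivin), of the chromosomal passenger complex, had 2289 bp and 1159 bp, although its signal was 74.6 and 88.4. NUF2, of the kinetochore, had 3529 bp and 2199 bp. MAD2L1, the spindle checkpoint protein that the study displayed, had 2526 bp and 1619 bp, with a signal of 71.4 and 84.8. CDC25C, the phosphatase of mitotic entry, was the single longer member (2660 bp and 3797 bp).

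The signal of mitosis genes had a median log2 ratio of -0.26, with 28 of 35 lower, against -0.02 over all starts. With signals divided by the mapped tags of each library the mitosis median was -0.10. This division moved every log2 ratio up by 0.15, that of all starts included, so the gap to all starts stayed the same. No mitosis gene passed 2-fold. The lowest were SPC25 of the kinetochore (88.9 and 49.2), KIF4A, a chromokinesin (64.7 and 37.4), and ESPL1, separase (46.6 and 30.7). Of 40 DNA replication genes 33 were shorter (82.5%; 67.2 to 92.7), among them PCNA, the polymerase clamp (2257 bp and 1375 bp), and MCM5 of the replicative helicase (2763 bp and 1472 bp). Their median log2 ratio was -0.13 as deposited and 0.02 with signals divided by mapped tags, so its direction depended on the scaling. PRIM1, primase, had 125 and 75.9, CDC6, the licensing factor, had 65.7 and 40.3, and DNA2, a helicase-nuclease, had 93.6 and 62. H3K27ac was present at 34 mitosis starts in control and at 10 after butyrate, and at 37 and 15 DNA replication starts, while over all starts it was called at 11299 in control and at 8323 after butyrate. Over all starts with H3K27ac in control that were no longer called for it, 60.1% (58.3 to 61.8) of those marked in both libraries had shorter H3K4me3, and 52.7% (51.5 to 53.8) where it was kept.

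Ribosomal protein and housekeeping genes had a lower signal as deposited, with a median log2 ratio of -0.19 (-0.02 over all starts) and 37 of 41 lower. Division by mapped tags, which moved the median of all starts up by the same 0.15, gave these genes a median of -0.03. Their intervals were not shorter, since 27 of 41 were longer (53.2% of all starts marked in both were). RPL5 had 116 and 76.1, RPL4 had 102 and 69.4, and RPL37 had 98.9 and 68.1. These are ribosomal protein genes, which have many processed copies. The study kept unique alignments, and how far the copies affect reads at these starts was not checked.

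**Figure D5:**
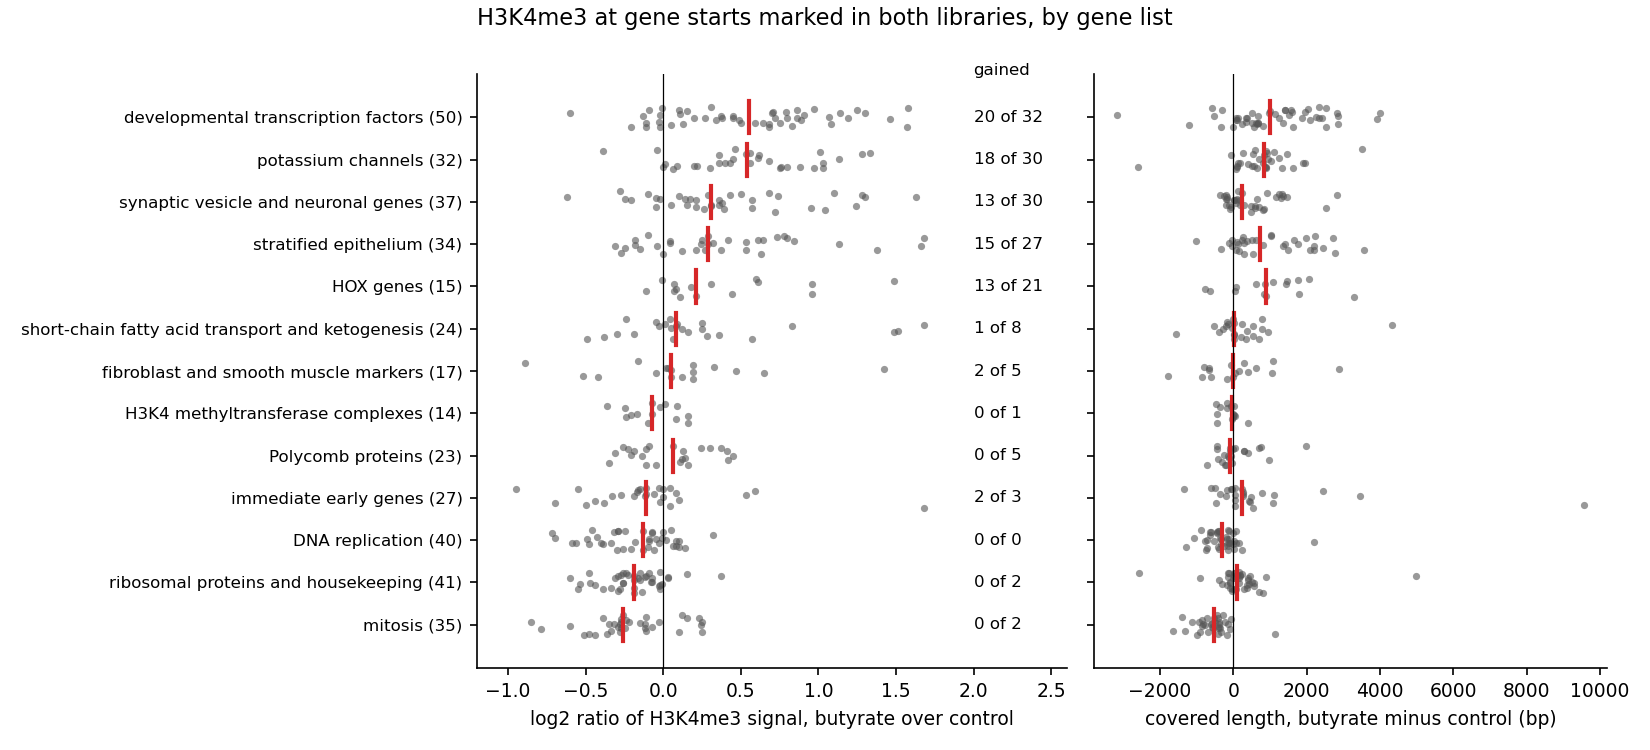
H3K4me3 at gene starts marked in both libraries, by gene list, with the log2 ratio of signal (left) and the difference of covered length in bp (right), 1 point per gene and a red bar at the median. Numbers in brackets count the points, and the column in the middle gives gained starts among those unmarked in control. The mitosis points lie left of 0 in length in 34 of 35 cases (median -542 bp), and those of developmental transcription factors mostly right of 0 (median 986 bp).

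Developmental genes showed the opposite, and their values are to be read beside those of all starts (12.4% gained, 3.43% at least 2-fold higher, 53.2% longer) and of starts with H3K27me3 alone in control (22.8% gained, 19.2% at least 2-fold higher, median log2 ratio 0.59). Of all 23869 starts 7888 had H3K27me3 in control. Of 82 developmental transcription factors 75 had H3K27me3 at the start in control, 20 of 32 unmarked starts were gained (62.5%; 43.7 to 78.9), and the 50 marked in both had a median log2 ratio of 0.55, with 9 at least 2-fold higher and 43 longer. The ratio was thus near that of all starts with H3K27me3 alone. SIX3, a forebrain factor, had 23 signal units in control and 68.8 with butyrate, LHX9, a LIM homeodomain factor, had 25.2 and 74.7, and SOX8 had 27.3 and 75.1. GATA5 (78.7) and TBX1 (74) had the highest signal among gained members. Of the members with a strong mark in control, IRX5 (151 and 142) and PAX9 (128 and 127) differed little, whereas HAND1, a heart factor, was lower after butyrate (136 and 89.5).

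The HOX genes, which set position along the body axis, were divided in the same way. At HOXC, the starts of HOXC4 (76.8 and 95), HOXC5 (80.6 and 86.9), HOXC6 (67 and 70.9), HOXC8 (82.9 and 77.1) and HOXC9 (84.5 and 95.9) had no H3K27me3 in control and had a strong mark in both libraries. On the 5′ side of that cluster, HOXC10 with H3K27me3 and H3K27ac had 36.6 and 71.3, and HOXC11, HOXC12 and HOXC13 were unmarked in control and had 50.7, 60.7 and 54.7 after butyrate. Of 21 HOX starts unmarked in control 13 were gained (61.9%; 38.4 to 81.9), beside 12.4% of all unmarked starts and 22.8% of those with H3K27me3 alone. The gained starts lay at HOXA, HOXB, HOXC and HOXD, and all 13 were new regions. HOXB9 (22.9 and 64.3) was the single HOX start at least 2-fold higher, and HOXD8 had 21.5 and 41.8.

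Genes of nerve cells, silent in epithelium as a rule, followed. Of 62 potassium channel genes 53 had H3K27me3 in control (7888 of all 23869 starts). Of the 30 unmarked 18 were gained (60%; 40.6 to 77.3), beside 12.4% of all unmarked starts and 22.8% of those with H3K27me3 alone. The 32 marked in both had a median log2 ratio of 0.54, near the 0.59 of all starts with H3K27me3 alone. KCNA6 had 31.2 and 78.2, KCNS3 had 24.2 and 58.7 and KCNK12 had 27.9 and 61.2. KCNK15 (70) and KCND3 (65.1) led the gained channels. Of 67 synaptic vesicle and neuronal genes 50 had H3K27me3 in control. Of the 30 unmarked 13 were gained (43.3%; 25.5 to 62.6), beside 12.4% of all unmarked starts and 22.8% of those with H3K27me3 alone. ATCAY (72.1) and SHANK2, a postsynaptic scaffold (61), led the gained members, and the 37 marked in both had a median of 0.31. INA, a neurofilament protein, had 40.7 and 126, SYT1, the calcium sensor of vesicle release, had 20.3 and 49.9, and CPLX1, complexin, had 26.3 and 63.7. Of the kinesin and vesicle motor list 14 of 29 starts had H3K27me3 in control. At least 2-fold higher were 4 of the 22 marked in both (3.43% of all starts, 19.2% of those with H3K27me3 alone), but the median was 0.16 and 6 were lower. KIF5C had 30.8 and 116, and KIF5A had 28.1 and 82.5 (log2 ratio 1.55, and -0.13 within 5 kb of the start). Of 7 unmarked starts 3 were gained (42.9%; 9.9 to 81.6), with KIF21B and KIF26A (75) among them. ARC, a synaptic immediate early gene that the study displayed, had 61.7 and 120 (log2 ratio 0.95), with 626 bp and 3147 bp.

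Of 62 starts of stratified epithelium genes 25 had H3K27me3 in control. The mark was gained at 15 of 27 unmarked starts (55.6%; 35.3 to 74.5), beside 12.4% of all unmarked starts and 22.8% of those with H3K27me3 alone. Of these gains 12 were new regions and the others moved edges. Of the 34 starts marked in both, 29 were longer (53.2% of all). The median log2 ratio was 0.29. ESRP2, a splicing regulator of epithelia, had 27.2 and 87.1, CLDN4, a tight junction claudin, had 29.4 and 93.2, and PKP1, a desmosomal plakophilin, had 31.7 and 82.5. H3K27me3 was present in control at the starts of ESRP2, CLDN4 and PKP1. Among the gained were ELF3, an epithelial ETS factor (78.6), GRHL2, a grainyhead factor (54.6), CLDN7 (52.9), LOR, loricrin of the cornified envelope (48.2), and the keratins KRT14 (31.6) and KRT15 (28.8). GRHL2 already had a control interval of 361 bp with a signal of 26.4 inside the gene, 3135 bp from the start. An interval of 1273 bp with 60.6 lay at that place after butyrate. LAMB3, a laminin chain of the basement membrane, was marked inside the gene in control, with an interval of 6511 bp and a signal of 114, and after butyrate by 1 interval of 10215 bp with 83 that came within 2 kb of the start. COL17A1, a hemidesmosomal collagen, with 24 in control, was lost. The fibroblast and smooth muscle list had a median of 0.05 over 17 genes, with FN1, fibronectin, at 94 and 50.8. It gained 2 of 5 unmarked starts, DES, desmin (49.8), and MYH11, smooth muscle myosin (34.1), and lost COL3A1, a fibrillar collagen (24.1), and POSTN, periostin (18.5). PDGFRA, the platelet-derived growth factor receptor, had 46.8 and 125 within 2 kb of the start, but a further control interval of 2494 bp with a signal of 105 lay just outside, and over the whole region it had 81.6 and 125 (log2 ratio 0.62).

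Genes that take up and use short-chain fatty acids had a median log2 ratio of 0.08. Of 32 starts 10 had H3K27me3 in control. Of 24 marked in both, 3 were at least 2-fold higher, beside 3.43% of all starts and 19.2% of those with H3K27me3 alone. These 3 are membrane transporters with H3K27me3 at the start in control and after butyrate. SLC16A3 (MCT4), a lactate and monocarboxylate transporter, had 26.6 and 85.2, with 810 bp and 5140 bp. SLC5A8, a sodium-coupled transporter of butyrate, had 34.9 and 99.3, and SLC9A3, a sodium-proton exchanger, had 25.6 and 72.1. SLC9A2 was gained (42.3). SLC16A1 (MCT1), the main butyrate carrier of the rumen, was strongly marked in both libraries (101 and 85.2). The lowest ratio was that of HADH, an enzyme of fatty acid oxidation (134 and 95.5; -0.49). Of the enzymes of ketone body metabolism, BDH1 had 106 and 104 and ACAT1 had 80.3 and 83.4. The butyrate receptors FFAR2 and FFAR3 were unmarked in both.

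The starts of enzymes that write, erase and read the mark were nearly alike in both libraries. No gene of the H3K4 methyltransferase complexes (14 marked in both, median log2 ratio -0.07), of the H3K4 demethylases (7, median -0.04), the H3K4me3 readers (14, median -0.11), the histone deacetylases (16, median -0.13), the histone acetyltransferases (9, median 0.03) or the Polycomb proteins (23, median 0.06) was gained, lost or past 2-fold. With signals divided by mapped tags the negative medians turned positive, with 0.08 for the methyltransferases, 0.11 for the demethylases, 0.04 for the readers and 0.03 for the deacetylases. The widest differences were at WDR82 (123 and 95.4), KDM5C (78.1 and 65.6), ING3 (65.4 and 49.6), HDAC11 (81.1 and 130), HDAC9 (46.7 and 71.6) and BMI1 (32.2 and 44.1). Immediate early genes had a median of -0.11 over 27 as deposited and 0.04 with signals divided by mapped tags, with CTGF at -0.95, CYR61, a matricellular YAP target, at 118 and 72.7, and KLF2 at 34.9 and 111 as the single member past 2-fold.

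The mark was also set beside the mRNA of the same cell type, using gene names and directions from separate RNA libraries of rumen epithelial primary cells with and without butyrate. Of 797 starts of genes with higher mRNA after butyrate, 563 had H3K27me3 in control (7888 of all 23869 starts). Of the 283 unmarked, 135 were gained (47.7%; 41.8 to 53.7; 12.4% of all unmarked starts and 22.8% of those with H3K27me3 alone). The 513 marked in both had a median of 45 signal units in control and 74.9 with butyrate, a median log2 ratio of 0.65 and 107 starts (20.9%) at least 2-fold higher, against 3.43% of all starts and 19.2% of those with H3K27me3 alone, and 8.58% (6.30 to 11.3) of them were shorter. Of 281 starts of genes with lower mRNA, 263 were marked in both, with a median signal of 87.2 and 76.7. Their median log2 ratio was -0.17 as deposited, against -0.02 over all starts. It was -0.02 with signals divided by mapped tags, which moved the median of all starts up by the same 0.15. In covered length 221 of these 263 were shorter (84.0%; 79.0 to 88.2), with a median of 2447 bp in control and 1985 bp after butyrate. With H3K27ac alone in control the share was 86.5% (81.4 to 90.7) in the genes with lower mRNA and 29.6% (19.3 to 41.6) in those with higher mRNA, beside 56.2% of all such starts. The median log2 ratios of signal at these starts were -0.18 and 0.19. With H3K27me3 alone in control, 108 of 190 unmarked starts of genes with higher mRNA were gained (56.8%; 49.5 to 64.0). Over all such starts 22.8% were gained. The 339 of these genes marked in both had a median log2 ratio of 0.78 (0.59 over all such starts). Of the 339, 27.7% were at least 2-fold higher, beside 19.2% of all such starts.

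Gene bodies held butyrate-only intervals in 2723 genes and control-only intervals in 853, and at least 5 such intervals in 93 genes and 1 gene. The most were in VPREB1 (42) and PRODH (21), and then NSG1 (19), MYH9 (16) and, with the same number, IFFO2, SKI and SORCS3 (13). A short region at the start of IFFO2 was also among those with the lowest ratio, so that region and the gene body differed in direction. VPREB1 and PRODH, of the surrogate immunoglobulin light chain and of proline breakdown, also held 55 and 47 control intervals in the spans annotated for them. The counts of these 2 genes depend on those spans, which were not checked, and may not describe the genes themselves. In MYH9, nonmuscle myosin, 17 intervals lay in the body after butyrate and 2 in control. Its start was broadly marked in both libraries (8211 bp and 10324 bp).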

How the data were processed

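Chromatin immunoprecipitation with sequencing was done on rumen epithelial primary cells with and without butyrate, with 1 library per mark and condition and 1 pooled input. Per the study's methods, the authors removed reads that failed the quality filter, aligned the rest with BWA, kept unique alignments and called peaks with MACS2 against the input. The submitters' processing notes name the genome build UMD3.1 and also list Trim Galore 0.4.1, which the methods give for other data types only. The tool that wrote the merged interval table was not given in the sources used here. The signal values deposited by the authors are the tag density at the summit of an interval and its mean over bins of about 32 bp. Their scaling between libraries was not stated, and the table holds no depth. The study's mapping summary lists fewer final tags for the butyrate library, and the division by these tags was one of the alternatives.

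Intervals that overlapped by at least 1 bp were joined into regions, and the signal of a region or start is the mean of its intervals weighted by length. Gene starts were derived from the distances that the table lists, for 23869 of 25197 symbols with at least 2 listings of which 90% agreed, and a start was marked where an interval came within 2 kb. Higher and lower mean at least 2-fold. No test was possible. Genes were named by rank: the 8 highest and 8 lowest log2 ratios and the 8 strongest gained and lost starts, the 5 longest intervals and the 5 largest length changes, the 3 largest ratios and 2 strongest gained or lost members of each list, the 5 gene bodies with most new intervals, and genes that the study displayed. Further list members were given after their values were seen, such as HOXC4 to HOXC13, BDH1, ACAT1, HADH and the cell cycle genes with the largest change of length. The members and lists were chosen with earlier results of these data known. Lists of genes by mRNA direction were taken by name only. No column belonged to another series (0 columns). Calculations used Python 3.11.15, numpy 2.4.6, pandas 2.3.3, scipy 1.17.1 and matplotlib 3.10.9, and were tested on simulated data. Sequences were not used here, and some items are not reported here.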

Additional observations from a re-analysis of the deposited data

How the results depend on the processing

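No paired analysis was possible because each mark and condition had 1 library. The regions called only after butyrate and only in control numbered 6081 and 899 with weak intervals left out, 5774 and 3804 with equal numbers of intervals, and 5360 and 538 with intervals within 500 bp joined. The shared regions higher and lower numbered 3288 and 437 at 1.5-fold, 113 and 0 at 3-fold, 2306 and 120 by peak value, and 1806 and 7 with signals divided by mapped tags. Those lower were 13 with low values left out and 35 after centring on the median. The median log2 ratio with H3K27me3 alone was 0.79 by peak value, 0.69 with low values left out and 0.74 with mapped tags, where that of all shared regions was 0.21 and that with H3K27ac alone was 0.10. Lost starts numbered 114 with equal numbers of intervals. Starts at least 2-fold higher numbered 715 with mapped tags, and those lower 4 over whole regions, 17 in a 1 kb and 5 in a 5 kb window. Of list medians of at least 0.10 in size, those that reversed were of histone deacetylases (0.06 by peak value and 0.03 with mapped tags), H3K4me3 readers (0.04), DNA replication (0.02) and immediate early genes (0.04), the last 3 with mapped tags. Of the smaller medians, those of methyltransferases (0.01 and 0.08), demethylases (0.04 and 0.11) and cell cycle inhibitors (0.05 and 0.12) turned by peak value and with mapped tags, and those of acetyltransferases (-0.08), Polycomb proteins (-0.03) and fibroblast markers (-0.05) by peak value. In other windows, those of demethylases (0.11 at 1 kb), cell cycle inhibitors (0.03 at 1 kb) and acetyltransferases (-0.01 at 5 kb) turned, and the ratio of KIF5A was -0.13 in a 5 kb window. For differences that no construction of the alternative explains, the cause was not tested. Mitosis genes were shorter in 33 cases in a 1 kb window and in 34 in a 5 kb window. The alternatives chosen after seeing the data were regions of 1 interval per library (888 higher, 18 lower), starts without moved edges (1201 gained, 45 lost), mapped tags and whole regions for the gene lists and starts, and other windows for covered length. Depth per library was not in the interval table, so an interval called in 1 library may lie just under the threshold in the other.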

Other observations

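The butyrate-only share of butyrate regions differed between chromosomes, from 23.7% (21.1 to 26.6) on X, where the shared regions had a median log2 ratio of -0.03, to 38.5% on chromosome 29, where it was 0.12.

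Genes of the interferon response were mostly alike in both libraries, with a median log2 ratio of 0.01 over 23 starts and 1 of 14 unmarked starts gained. MX1, an antiviral GTPase, had 34.1 and 56.9, ISG20, an exonuclease, had 56.2 and 92.2, and MX2 had 91.4 and 71.2. The 20 cell cycle inhibitors and growth arrest genes were all marked in both, with a median of -0.03 as deposited and 0.12 with signals divided by mapped tags. CDKN1A (p21), a known butyrate target, had a weak signal within 2 kb of its annotated start (22.2 and 32.5), while GADD45A, a stress sensor, had 200 and 162 and GAS2 had 107 and 148. Of 25 endothelial and immune markers 4 were marked in both, with a median of 0.96, and 3 of 21 unmarked starts were gained (14.3%, near the 12.4% of all unmarked starts). KDR, a receptor of endothelial growth factor, had 33.3 and 66.8, and CD14, a receptor of monocytes, had 53.3 and 99.6. The starts of PTPRC, CD3E, PECAM1 and VWF, which define immune and endothelial cells, were unmarked in both libraries. Inside VWF, at 29912 bp from the start, a control interval of 1103 bp had a signal of 57 and a butyrate interval of 1207 bp had 71.7, and inside PECAM1 there was 1 butyrate interval of 178 bp with 27.8.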
